A study of Mus musculus with 2 samples.

Results

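Among the sorted innate immune cells of the livers of mice fed CDA-HFD, 293 macrophages carried the Kupffer cell gene Cd5l and further Kupffer cell genes but no count of Timd4, the gene of the surface receptor Tim4 that marks the resident Kupffer cells. They were chosen by their counts alone. A cell was taken when its barcode belonged to a CDA-HFD mouse, at most 25% of its counts came from mitochondrial genes, Cd5l was above 0, Timd4 was 0, and at least 2 of the 5 genes Cd207, Il18bp, Clec1b, Vcam1 and Slc40a1 were above 0. This rule found 118 of 5885 cells in one mouse and 175 of 6186 in the other, both numbers after the mitochondrial limit. Before that limit there were 15394 cells of 4 mice in all. They are called Cd5l+Timd4- macrophages here. Their descent from monocytes was not measured in these data. Most of them had no count of Clec4f or Vsig4, which define Kupffer cells, so the name Kupffer-like was not used.

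The data were single-cell RNA counts of CD45.2+ CD11b+ liver cells, sorted free of cells with CD90.2, B220, NK1.1 or SiglecF, and the 4 mice were pooled and told apart by hashtags. There was 1 mouse per group: an Egr2fl/fl and a Lyz2Cre/+.Egr2fl/fl mouse on normal diet (ND), and an Egr2fl/fl and a Lyz2Cre/+.Egr2fl/fl mouse on CDA-HFD for 7 weeks, a diet rich in fat and free of choline that induces steatohepatitis. The methods describe male mice of 6 to 12 weeks for the CDA-HFD feeding. All 4 mice carried the floxed Egr2 allele, which encodes a zinc-finger transcription factor, and the Cre of the Lyz2 locus acts in monocytes, macrophages and granulocytes alike, so these cells were not targeted on their own. The CDA-HFD Egr2fl/fl mouse is called the control mouse and the CDA-HFD Lyz2Cre/+.Egr2fl/fl mouse the Egr2-deficient mouse, and paired values are given in that order, Egr2fl/fl before Lyz2Cre/+.Egr2fl/fl. With 1 mouse per group no difference could be tested, a difference between genotypes is one between 2 animals, and every interval is a 95% interval that covers counting error only. Intervals of levels and ratios of genes take each count as independent. They leave out the variation between cells, so they are too narrow where few cells hold most counts of a gene. They are also too narrow if reads rather than molecules were counted, which the sources used here do not give.

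Kupffer cells are the resident macrophages of the liver sinusoids. They clear particles, bacteria and aged red cells from the blood, handle the iron of those red cells, and keep themselves largely without blood monocytes in health. When they are lost, monocytes enter the emptied niche, and signals from the sinusoidal endothelium, stellate cells and hepatocytes induce Kupffer cell genes in them in steps. In steatohepatitis, recruited macrophages also take on a lipid-associated state, known for Trem2, Gpnmb, Spp1, Cd9 and Cd63, that handles lipid and dead cells near scar tissue.

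The upstream sequences of 4 of the genes that the results turn on are shown: Cd5l and Timd4, whose counts the rule required above 0 and at 0, Cd207, another gene of the rule, and its neighbour Clec4f, which the rule did not use. Each line gives the 250 bases before the RefSeq start of the gene (build GRCm38.p6), 5′ to 3′ on the strand of the gene, with matches of the searched motifs in capitals. Cd5l lies at chr3:87357631-87357880 on the plus strand, Timd4 at chr11:46810549-46810798 on the plus strand, Clec4f at chr6:83656117-83656366 on the minus strand and Cd207 at chr6:83677858-83678107 on the minus strand. For Timd4 the RefSeq gene begins at 46810786, within the last bases of the window, while the window ends at the start given with the sequence, from which the distances of its motifs are counted.
Cd5l: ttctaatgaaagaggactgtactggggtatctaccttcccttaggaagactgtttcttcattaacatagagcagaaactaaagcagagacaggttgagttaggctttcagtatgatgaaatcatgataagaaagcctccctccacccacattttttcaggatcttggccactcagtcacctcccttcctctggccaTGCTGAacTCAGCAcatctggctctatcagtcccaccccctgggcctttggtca
Timd4: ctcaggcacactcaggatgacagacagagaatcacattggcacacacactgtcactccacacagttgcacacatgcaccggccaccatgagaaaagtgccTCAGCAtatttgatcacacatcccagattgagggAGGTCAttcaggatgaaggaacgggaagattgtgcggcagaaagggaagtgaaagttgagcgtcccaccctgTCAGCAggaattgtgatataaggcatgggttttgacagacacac
Clec4f: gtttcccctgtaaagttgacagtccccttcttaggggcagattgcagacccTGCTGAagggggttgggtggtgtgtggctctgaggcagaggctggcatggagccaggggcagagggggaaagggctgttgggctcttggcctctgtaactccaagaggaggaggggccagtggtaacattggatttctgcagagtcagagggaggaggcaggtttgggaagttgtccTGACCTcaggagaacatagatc
Cd207: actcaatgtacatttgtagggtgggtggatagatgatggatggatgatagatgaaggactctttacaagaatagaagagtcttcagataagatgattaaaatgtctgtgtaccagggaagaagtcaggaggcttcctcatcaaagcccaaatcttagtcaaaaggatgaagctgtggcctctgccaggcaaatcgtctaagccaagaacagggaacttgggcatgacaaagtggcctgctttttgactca

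4 motifs were searched on both strands: GAGGAAGT (the core bound by ETS factors such as PU.1), AGGTCA (a half-site of nuclear receptors such as LXR-RXR), TGCTGA (a half-site of MAF factors) and GTGGGAA (bound by RBPJ). The capitals in Cd5l mark TGCTGA 54 bases before the start and its reverse complement TCAGCA at 46 bases. In Timd4 they mark TCAGCA at 150 and 44 bases and AGGTCA at 116 bases. In Clec4f they mark TGCTGA at 199 bases and TGACCT, the reverse complement of AGGTCA, at 22 bases, and Cd207 held none of the 4. Such matches are common: of 32536 promoter windows of this length, 2.45% held GAGGAAGT, 14.0% AGGTCA, 16.1% TGCTGA and 5.43% GTGGGAA. They describe letters, not binding. Clec4f (6:83644542-83656116) and Cd207 (6:83671207-83677857) encode C-type lectins and are neighbours on the minus strand of chromosome 6, with 15090 bases between them.

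The Cd5l+Timd4- macrophages made up 2.01% of the cells of the control mouse (95% Clopper-Pearson interval 1.66 to 2.40%) and 2.83% of those of the Egr2-deficient mouse (2.43 to 3.27%). The Egr2-deficient mouse was 0.824 points higher (Newcombe interval 0.265 to 1.39 points). The share was thus higher in the Egr2-deficient mouse by more than counting error. Of other populations of these 2 mice, defined below, monocytes were 20.3% and 23.5% of the cells and neutrophil-like cells 12.6% and 9.80%. Cd5l-negative macrophages were 11.3% and 11.9%. Whether mice of 1 genotype differ as much was not measured.

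The diets differed in which Cd5l+ cells were there. Cells that met every condition but had a count of Timd4 formed 43.4% (748 cells) and 50.5% (803 cells) of the cells in the ND Egr2fl/fl and ND Lyz2Cre/+.Egr2fl/fl mice, and are called resident Kupffer cells below. On CDA-HFD there were only 10 such cells (0.170%) in the control mouse and 20 (0.323%) in the Egr2-deficient mouse. Among all cells that met the other conditions, Timd4 was 0 in 118 of 128 (92.2%, 86.1 to 96.2%) and 175 of 195 (89.7%, 84.6 to 93.6%) on CDA-HFD. On ND it was 0 in 34 of 782 (4.35%, 3.03 to 6.02%) and 38 of 841 (4.52%, 3.22 to 6.15%). The CDA-HFD cells at Timd4 0 were deep, with medians of 31645 and 28184 counts per cell, and the ND ones shallow, with 8669 and 7745.

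**Figure D1:**
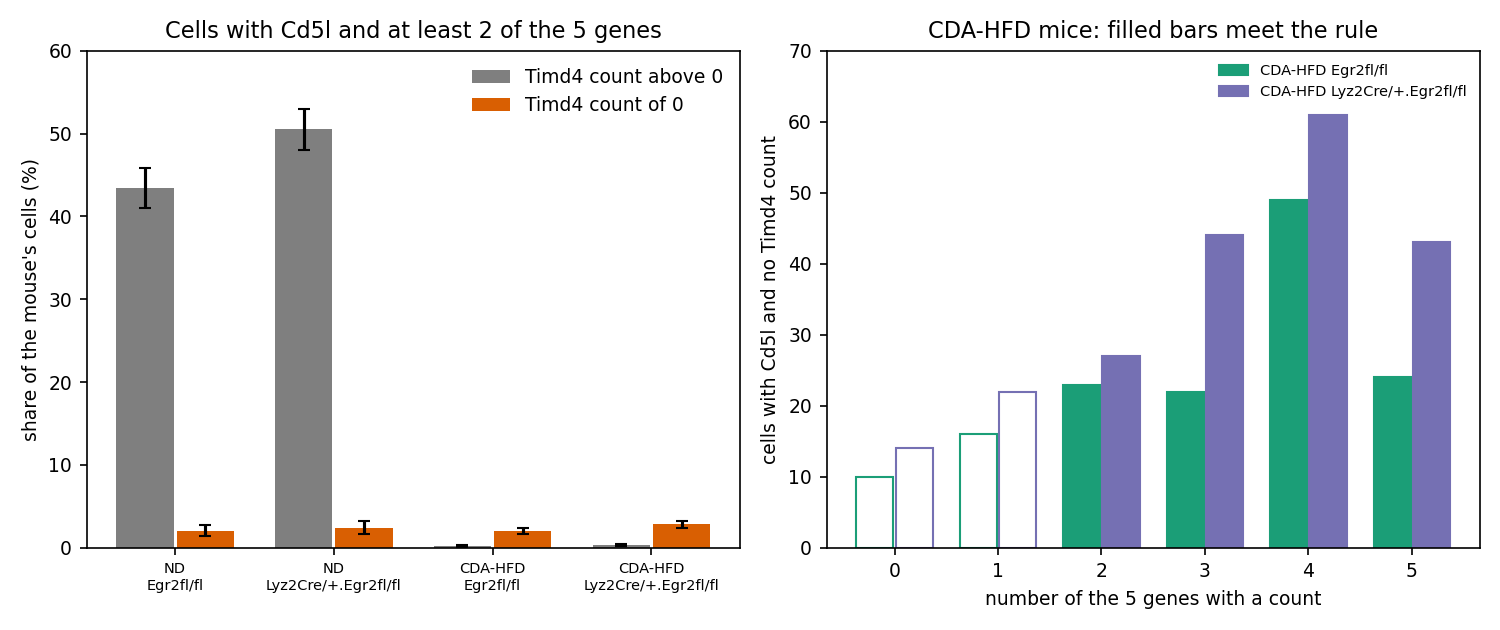
Left, share of each mouse's cells (%) with Cd5l and at least 2 of the 5 genes, split by Timd4, with 95% Clopper-Pearson intervals as bars; right, number of cells with Cd5l and no Timd4 count in the 2 CDA-HFD mice by how many of the 5 genes had a count. Cells with Timd4 formed 43.4% and 50.5% on ND and 0.170% and 0.323% on CDA-HFD, while filled bars at 2 to 5 genes add up to the 118 and 175 cells of the rule.

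The cells of the same rule in the ND mice were 34 and 38 in number. They were 1.97% and 2.39% of the cells of these mice, against 2.01% and 2.83% on CDA-HFD, but had another profile. Clec4f, a lectin that binds galactose-bearing ligands and is the classical Kupffer cell marker, stood at 3807 and 5800 CPM in them (a gene's counts over all cells of a group, per 1000000 counts of these cells), with a count in 82.4% and 84.2% of these cells. In the CDA-HFD cells it stood at 459 and 714 CPM. Gpnmb, a glycoprotein of the lysosome of lipid-loaded macrophages, was at 48.0 and 4.90 CPM in the ND cells. In the CDA-HFD cells it was at 720 and 694 CPM. A cell without a Timd4 count was therefore a different cell on the 2 diets.

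The threshold of 2 genes cut a continuous range. With no, 1, 2, 3, 4 and 5 of the 5 genes there were 10, 16, 23, 22, 49 and 24 Cd5l+Timd4- cells in the control mouse. The Egr2-deficient mouse had 14, 22, 27, 44, 61 and 43. Just outside the rule, at 1 gene, the median Cd5l count was 9 and 15. Just inside it, at 2 genes, the medians were 21 and 13, and at 5 genes they were 114.5 and 115. The counts per cell were also higher at 5 genes than at 1, with medians of 18876 and 25442 at 1 gene and 34970.5 and 28950 at 5 genes.

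The genes of the rule are described only. Cd5l, a secreted scavenger protein that lets macrophages resist death in lipid-rich surroundings, had between 7 and 389 counts per cell in the control mouse (median 69) and between 7 and 508 (median 62) in the Egr2-deficient mouse. Its summed level was 2770 and 3110 CPM, against 6162 and 6294 CPM in the resident Kupffer cells of the 2 ND mice. Cd207, the lectin langerin, was counted in 38.1% and 47.4% of the cells. Il18bp, the soluble inhibitor of IL-18, was counted in 90.7% and 91.4%, the lectin receptor Clec1b in 81.4% and 77.7%, the adhesion molecule Vcam1 in 64.4% and 60% and the iron exporter Slc40a1 in 88.1% and 92.0%. Of the genes counted in at least 100 cells, 22 have no count from 1 to 4 anywhere, among them Cd5l, Clec4f, Vsig4, Fcna, Mmp12, S100a9, Retnlg, Cxcl2, C1qa, Apoe, Lyz2, H2-Aa, H2-Ab1 and Cd74. The lowest Cd5l count above 0 was 7, that of Clec4f 8 and that of Vsig4 5. Low values of these genes therefore appear to have been set to 0 before deposit, and a cell listed at 0 may have held a few counts, and ratios over a group with few such cells are uncertain; Timd4, Gpnmb, Trem2 and Cd207 are not among the 22.

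The cells were macrophages by their markers. Csf1r, the receptor of the macrophage growth factor, was counted in 100% and 99.4% of the Cd5l+Timd4- cells, Adgre1 (F4/80) in 95.8% and 93.7%, the complement subunit C1qa in 96.6% and 92.6% and the Fc receptor Fcgr1 in 83.9% and 90.9%. They were deeply sequenced, with 3477 to 74671 counts per cell in the control mouse and 3239 to 86395 in the Egr2-deficient mouse, and medians of 3958 and 3819 genes. By contrast, the medians over all cells of the 4 mice were between 13168 and 16459 counts. No barcode was shared by 2 mice, and the hashtag of the own mouse held at least 90% of the hashtag counts in 94 of the 118 and 142 of the 175 cells.

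Markers of other cells were low but not absent. S100a8, a granule protein that neutrophils make in great amounts, was counted in 92.4% and 86.3% of the Cd5l+Timd4- macrophages. Its partner S100a9, for which low values are not listed, was counted in 5 cells of the control mouse (4.24%) and 1 of the Egr2-deficient mouse (0.571%). The neutrophil list summed to 544 and 187 CPM in these cells against 99574 and 111993 CPM in neutrophil-like cells of the same mice (S100a8 and S100a9 above 0, Adgre1 0). Albumin was at 0 counts, but 10 and 9 of 11 genes of the hepatocyte list had counts, with sums of 802 and 662 CPM. Of these sums 728 and 587 CPM came from transferrin, Trf, and Apoa2 was counted in 27 and 36 cells, Ttr in 18 and 23 and Mup20 in 18 and 31. Of other markers, the endothelial receptor Kdr was at 1.08 and 0.967 CPM, and Ccr7 of migrating dendritic cells was counted in 3 and 7 cells. All 8 genes of the dendritic cell list had counts, with sums of 64.5 and 19.0 CPM, as had all 10 of the endothelial list, with 150 and 187 CPM. Values without the cells that had a count of S100a9, or of Cd209a, Flt3, Ccr7 or Kdr, are given in the closing section, and the part of such cells in the results was not tested otherwise.

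Egr2 itself checked the labels. In the Cd5l+Timd4- macrophages it stood at 44.6 CPM (38.02 to 51.9) in the control mouse, counted in 39 cells. In the Egr2-deficient mouse it stood at 1.93 CPM (0.928 to 3.56), counted in 3 cells. The gene was also lower with Cre in the ND resident Kupffer cells, at 5.05 and 0.959 CPM, and in the Cd5l-negative macrophages of the CDA-HFD mice defined below, at 51.0 and 9.80 CPM. In the monocytes of the CDA-HFD mice it was at 35.4 and 14.2 CPM. Lyz2, the lysozyme gene whose locus holds the Cre, was at 9886 and 5987 CPM in the Cd5l+Timd4- macrophages, and was likewise lower with Cre in the ND resident Kupffer cells (8236 and 3784 CPM). Both genes thus went with the labels in every population compared.

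How close these cells came to resident Kupffer cells was asked by setting them beside the 748 and 803 Timd4+ cells of the ND mice. Core Kupffer cell genes were far lower, lipid-associated genes far higher, and the transcription factors of Kupffer cells were mostly within 2-fold. A gene was counted as higher or lower when it passed 2-fold the same way in all 4 pairs of a CDA-HFD and an ND mouse. Of 11477 genes with at least 100 counts, 375 (3.27%) were higher and 592 (5.16%) lower in the Cd5l+Timd4- macrophages, and the median log2 ratio over all genes was -0.13. The diet and the rule for Timd4 both differ here and cannot be told apart, the origin of the cells was not measured, and both sets were chosen by counts, so the values are descriptions.

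Of 15 measured core Kupffer cell genes, 14 were lower in all 4 pairs and none higher, with a median log2 ratio of -3.51. Clec4f was at 459 and 714 CPM against 7310 and 7842 CPM in the resident cells, which is 10.2 to 17.1 times lower over the 4 pairs. Vsig4, a complement receptor that catches opsonised bacteria, was at 258 and 425 against 3162 and 3393 CPM, 7.45 to 13.2 times lower. Fcna, a ficolin of the lectin pathway, was 14.0 to 22.5 times lower and the folate receptor Folr2 7.52 to 17.3 times lower. No value of a CDA-HFD mouse reached that of an ND mouse for any of these 4 genes. The widest gaps in the list were those of Cd163, the haemoglobin scavenger receptor (4.32 and 8.90 against 685 and 763 CPM), and of C6, a component of the membrane attack complex (8.37 and 32.1 against 1022 and 943 CPM). Siglec1, the sialic acid receptor CD169, was the only measured member within 2-fold in at least 1 pair, at 47.0 and 70.6 against 91.8 and 104 CPM.

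Low sums can come from few cells or from low levels in each cell, and for Clec4f both were seen. It was counted in 16.9% and 24.0% of the Cd5l+Timd4- macrophages, 17.2% and 24.1% after thinning each cell to 5000 counts, against 0.135% and 0% of the neutrophil-like cells, which should lack it (median depth 4115.5 and 4170.5 counts). Among the 20 and 42 cells with a count the median cell stood at 2839 and 2820 CPM. The resident Kupffer cells with a count had medians of 7345 and 7979 CPM. Vsig4 was counted in 19.5% and 25.1% (neutrophil-like cells 0.811% and 0.165%), and its median in those cells was 1563 and 1714 CPM against 3129 and 3373 CPM. Cd207, a gene of the rule, was likewise counted in a smaller share, 45 of 118 and 83 of 175 cells against 625 of 748 and 665 of 803 resident cells. Only its level in the cells with a count went the other way. There the median was 1419 and 1587 CPM, above the 1016 and 980.5 CPM of resident cells with a count.

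Lipid-associated macrophage genes were higher in 19 of 22 measured cases and lower in none, with a median log2 ratio of 3.33. Gpnmb was at 720 CPM (693 to 748) and 694 CPM (671 to 717) against 3.52 and 4.15 CPM, 167 to 204 times higher. Trem2, the lipid-sensing receptor of this state, was at 956 (924 to 988) and 909 (883 to 936) against 61.5 and 118 CPM, 7.71 to 15.5 times higher. Both stood apart from the resident cells in either mouse. Spp1 (osteopontin) was 51.1 to 196 times, the tetraspanins Cd63 46.9 to 88.5 times and Cd9 14.0 to 17.6 times and the fatty acid carrier Fabp5 23.2 to 38.9 times higher. The elastase Mmp12, at 644 and 282 CPM, was counted in only 3 and 6 resident cells (1.21 and 4.47 CPM), and low counts of it are not listed, so its ratios of 63.0 to 533 are uncertain. Smaller gaps were found for lipid uptake and storage: lipoprotein lipase Lpl stood at 2241 and 2354 against 814 and 846 CPM, the fatty acid receptor Cd36 at 627 and 632 against 126 and 129 CPM, and the lipid droplet coat Plin2 at 596 and 482 against 151 and 144 CPM. Gpnmb was counted in 76.3% and 72.6% of the Cd5l+Timd4- macrophages (66.4% and 53.5% thinned) and in 4.32% and 4.46% of neutrophil-like cells (5.66% and 4.64% thinned). Trem2 was counted in 96.6% and 92.0% against 5.68% and 7.26%. Both genes were thus found in most of these cells and far above their share in neutrophil-like cells.

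Of 12 measured Kupffer cell transcription factors and cofactors, 1 was higher, 2 were lower and 9 were not past 2-fold in all pairs. Id3 was at 1212 and 1132 CPM against 1084 and 814, and Spic, which drives genes of red cell iron handling, at 81.3 and 85.9 against 107 and 100. Nr1h3, which encodes LXRα and maintains Kupffer cell identity, was at 245 and 255 against 437 and 391 CPM, 1.53 to 1.78 times lower. Its partner Rxra (78.6 and 84.3 against 201 and 190 CPM) and Tfec (59.7 and 67.3 against 143 and 140 CPM) were the lower pair. Runx3 was the higher one, at 7.83 and 8.12 against 1.84 and 2.82 CPM. The factors thus differed far less than the core genes.

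Of the receptors for niche signals, 2 of 14 were higher and 1, Bmpr1a, was lower. The chemokine receptors Ccr2 (201 and 106 against 11.04 and 14.3 CPM) and Cx3cr1 (342 and 268 against 12.3 and 18.4 CPM), by which monocytes are recruited and kept, were the higher ones. Among 13 monocyte genes 5 were higher (Ccr2, S100a4, S100a6, Clec4e and Thbs1) and none lower, with a median log2 ratio of 1.17. S100a4, a calcium-binding protein of motile cells, was at 210 and 157 against 45.8 and 45.2 CPM. Ly6c2, the gene of the Ly6C antigen of inflammatory monocytes, was at 15.7 and 11.8 CPM in the Cd5l+Timd4- macrophages and at 1711 and 1645 CPM in 1193 and 1455 monocytes of the same mice (Ly6c2 and Ccr2 above 0, Cd5l and C1qa 0). The monocytes were chosen for counts of Ly6c2, so their level is given only as a reference.

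Genes of Kupffer cell functions differed to unequal degrees. Of 12 complement genes, C1qa, C2, C4b, C6 and Cfp were among the lower ones and only the receptor C5ar1 was higher. C2 was at 1.62 and 3.29 against 124 and 112 CPM. Of 13 measured iron and heme genes Cd163 alone was past the fold. Slc40a1, part of the rule, was at 481 and 519 against 2093 and 1749 CPM. Of 15 lipid efflux and lipoprotein genes 1 was higher (Apoc2) and 2 were lower (Apoc1 and Scd1): Apoe, which carries cholesterol out of the cell, was at 40186 and 39091 against 25935 and 29927 CPM, whereas Apoc1 was at 173 and 160 against 2489 and 2449 CPM. Among uptake receptors Cd36 and Stab1 were higher, and the mannose receptor Mrc1, the scavenger receptor Marco and Cd163 were lower, of 14. All 7 MHC class II genes were within 2-fold in at least 1 pair.

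Secreted signals also differed. Chemokine genes were higher in 5 (Ccl3, Ccl4, Ccl9, Cxcl1 and Cxcl2) and lower in 3 (Ccl12, Ccl24 and Cxcl13) of 16. Ccl24, an eosinophil attractant, was at 72.6 and 80.5 against 893 and 875 CPM. Cxcl13, a B cell attractant, was at 0 and 0.580 against 560 and 351 CPM, at least 434 times lower when the group at 0 is set to 3 counts. Growth factor and matrix genes were higher in 6 of 17 (Vegfa, Osm, Mmp12, Mmp13, Mmp14 and Thbs1), and Igf1, a growth factor for hepatocytes and muscle, was nearly equal at 985 and 1011 against 1026 and 962 CPM. Immediate early genes, which also respond to tissue digestion, were higher in 7 of 12, with Fos at 1013 and 901 against 236 and 141 CPM and Atf3 at 761 and 586 against 69.95 and 62.0 CPM. Their part in the other differences was not tested. Cell cycle genes were higher in 5 of 11, Mki67 at 28.6 and 29.0 against 10.6 and 12.99 CPM. Mki67 was counted in 13 and 25 of the cells.

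Beyond these lists, the highest ratios after Gpnmb belonged to the organic anion carrier Slco2b1 (22.1 and 25.5 against 0.158 and 0.107 CPM, counted in 26 and 28 cells) and, past Mmp12, Spp1 and Cd63, to the motor protein Myo5a, Sh2d1b1, Cd93 and the potassium channel Kcnn4, all at least 31.7 times higher. Cd63-ps also ranked there but is a pseudogene that shares sequence with Cd63, so its counts are uncertain. At the other end stood Cxcl13, Cd163, the syndecan Sdc2 (0.810 and 1.74 against 69.1 and 61.9 CPM), C2, Gprc5c and Abhd11os, which had no count in the Cd5l+Timd4- macrophages and stood at 27.5 and 26.3 CPM in resident cells, at least 32.5 times lower. Haemoglobin genes also ranked among the lower ones, but in the resident cells they lay in 2 cells and 1 cell (0.267% and 0.124%).

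**Figure D2:**
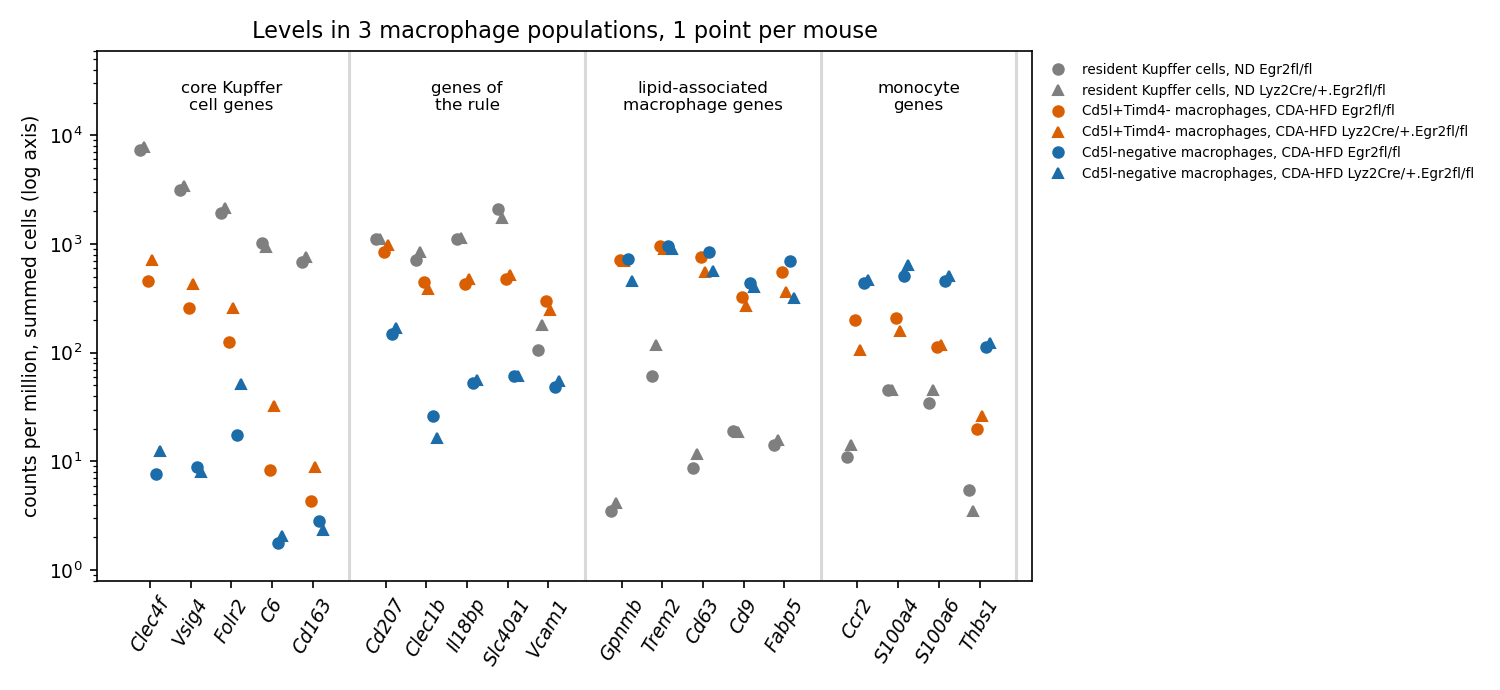
CPM of summed cells (log axis) of 19 genes in resident Kupffer cells on ND (grey), Cd5l+Timd4- macrophages on CDA-HFD (orange) and Cd5l-negative macrophages on CDA-HFD (blue), with 1 point per mouse, circles for Egr2fl/fl and triangles for Lyz2Cre/+.Egr2fl/fl. Core Kupffer cell genes of the Cd5l+Timd4- macrophages lie between the other populations (Clec4f at 459 and 714 CPM), their lipid-associated genes lie with the Cd5l-negative macrophages (Gpnmb at 720 and 694 CPM), and Vcam1, a gene of the rule, lies above both.

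The few Timd4+ cells left on CDA-HFD, 10 and 20 in number, held both programmes. Clec4f was at 2179 and 2451 CPM, below the ND resident cells and above the Cd5l+Timd4- macrophages, and was counted in 60% of the cells in either mouse. Gpnmb was at 491 and 717 CPM and Trem2 at 804 and 732 CPM, near the levels of the Cd5l+Timd4- macrophages. Timd4 itself was at 179 and 268 CPM. With so few cells these values rest on single cells.

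The nearest other macrophages of the same livers were cells with Adgre1, C1qa and Fcgr1 but no Cd5l, Timd4, Cd209a or Flt3 count. There were 665 (11.3%) and 736 (11.9%) such Cd5l-negative macrophages, with median depths of 22302 and 19761.5 counts. Compared with them, within each mouse, the Cd5l+Timd4- macrophages had more of nearly every core Kupffer cell gene, lipid-associated genes mostly within 2-fold, and less of the monocyte genes. Of 10970 genes tested, 185 (1.69%) were at least 2-fold higher in both mice and 104 (0.948%) lower. With TMM scaling, another scaling of the summed counts, the split was 149 higher and 135 lower, and the median log2 ratio over all genes was -0.07 in place of 0.02. Since the cells were parted by Cd5l, genes that go with Cd5l were bound to differ, and the counts are descriptions.

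Core Kupffer cell genes were higher in 13 of 14 measured cases, with a median log2 ratio of 3.11. Clec4f was at 7.64 and 12.4 CPM in the Cd5l-negative macrophages, 57.7 to 60.1 times below the Cd5l+Timd4- macrophages of the same mouse. Fcna was 50.3 to 117 times and Vsig4 29.1 to 52.8 times higher in the Cd5l+Timd4- macrophages, but these folds rest on few Cd5l-negative cells. Clec4f was listed in 5 and 4 of them, Vsig4 in 9 and 7 and Fcna in 3 and 5, and low values of all 3 genes are not listed. The monocarboxylate carrier gene Slc16a9 (9.45 and 16.1 against 0.122 and 0.251 CPM) and Paqr9 (15.4 and 30.8 against 0.245 and 0.377 CPM) showed gaps as wide at far lower counts. Folr2 differed less, with 125 and 256 against 17.4 and 51.8 CPM. Cd163 was the one not past the fold. Hey1, a target of Notch signalling, was at 40.0 and 21.5 CPM against 3.61 and 1.26 CPM, and in ND resident Kupffer cells at 13.5 and 13.6 CPM.

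Lipid-associated genes were higher in none and lower in 2 of 24 (F10 and Clec4e), with a median log2 ratio of -0.10. Trem2 was at 965 and 907 CPM in the Cd5l-negative macrophages and Gpnmb at 734 and 459 CPM. The ratio was between 0.991 and 1.00 for Trem2 and between 0.980 and 1.51 for Gpnmb. Lipa, the lysosomal acid lipase, was at 960 and 868 CPM against 999 and 875. Of the 24 genes 19 had a mean ratio below 1. The tetraspanin Cd9 (ratios between 0.666 and 0.738) and the integrin Itgax (between 0.462 and 0.663) lay lower in both mice, and Mmp12 lay higher, at ratios between 1.90 and 2.47, without reaching the fold in both.

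Of 14 monocyte genes 10 were lower and none higher, with a median log2 ratio of -1.64. Ccr2 was at 201 and 106 CPM against 441 and 468 CPM in the Cd5l-negative macrophages and 918 and 968 CPM in the monocytes. S100a4 was at 210 and 157 against 513 and 640 CPM, with 2992 and 2621 CPM in the monocytes, and Ly6c2 was 3.52 to 11.2 times lower than in the Cd5l-negative macrophages. The monocytes were chosen by counts of Ly6c2 and Ccr2, so of their levels only that of S100a4 was not fixed in this way. Thrombospondin Thbs1 was 4.63 to 5.68 times lower, fibronectin Fn1 2.59 to 3.46 times and Tgfbi 2.99 to 3.19 times. The scavenger receptor Olr1 and Tmem119 (2.43 and 7.35 against 31.9 and 47.1 CPM) ranked among the lowest ratios outside the lists, as did, within the endothelial list, the inhibitory Fc receptor Fcgr2b (47.0 and 42.0 against 224 and 258 CPM).

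Other lists held higher members too. Complement genes were higher in 3 of 10 cases: C6, the convertase protein Cfb (38.1 and 49.3 against 18.0 and 15.9 CPM) and properdin, Cfp (654 and 860 against 239 and 235 CPM). Mrc1 was at 417 and 461 against 155 and 127 CPM, and Marco and Scarb1, the receptor for high-density lipoprotein, also passed the fold, 3 of 14 uptake receptors. Apoc1, the phospholipid transfer protein Pltp (757 and 838 against 287 and 309 CPM) and the desaturase Scd1 were higher of 15 lipid efflux genes. Il1a (76.4 and 71.2 against 15.8 and 10.3 CPM) and Il18 (129 and 106 against 34.8 and 46.2 CPM) were higher of 8 genes of the IL-1 and IL-18 axis, beside Il18bp, which the rule used. The interferon-responding gene Ifi44, the ferroxidase Cp of the iron list and Mmp8 of the neutrophil list also passed the fold. Of 18 growth factor and matrix genes Hbegf and Pdgfc were higher and Fn1, Tgfbi and Thbs1 lower. Rxra (78.6 and 84.3 against 34.9 and 25.7 CPM) and Tfec (59.7 and 67.3 against 16.9 and 25.5 CPM) lay between the Cd5l-negative macrophages and the resident Kupffer cells, as Nr1h3 did in either mouse (185 and 171 CPM in the former). Runx3 was at 35.8 and 27.1 CPM in the Cd5l-negative macrophages, 3.33 to 4.57 times above the Cd5l+Timd4- macrophages. All 7 MHC class II genes had a mean ratio below 1 against the Cd5l-negative macrophages (H2-DMa between 0.816 and 1.00), none of them past 2-fold in both mice, with a median log2 ratio of -0.80. Of 7 measured endothelial genes 4 were higher (Ptprb, Stab2, Pecam1 and Cdh5), all of which resident Kupffer cells also had, and 1, Fcgr2b, was lower, while the endothelial receptor Kdr stayed near 1 CPM.

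The Cd5l+Timd4- macrophages were not uniform. Grouped by whether they had a count of Gpnmb and a count of Clec4f or Vsig4, 68 and 93 cells of the control and the Egr2-deficient mouse had Gpnmb only, 22 and 34 had both, 12 and 26 had Clec4f or Vsig4 only, and 16 and 22 had neither. Cells with Clec4f or Vsig4 were 28.8% (34 of 118) and 34.3% (60 of 175). These groups were formed from counts of a lipid-associated gene and of 2 core Kupffer cell genes, and depth bears on who has a count, so an inverse order of the 2 kinds of gene is partly built in and what follows is a description within each mouse. The cells with neither had medians of 22557 and 18408.5 counts, those with both 32314 and 29202.5.

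Kupffer cell genes that did not form the groups went with Clec4f and Vsig4. Folr2 was at 47.2, 207 and 502 CPM in the control mouse over Gpnmb only, both, and Clec4f or Vsig4 only. In the Egr2-deficient mouse the same steps gave 140, 384 and 574 CPM. Cd5l had the same order, with 2279, 3187 and 5347 CPM in the former and 2029, 3499 and 6348 CPM in the latter mouse, and so had Slc40a1, with 339, 712 and 957 and with 320, 448 and 1147 CPM. Both belong to the rule. Trem2 ran the other way, with 1213, 793 and 296 CPM in the control mouse and 1116, 1030 and 237 CPM in the Egr2-deficient mouse. Fabp5 was at 797, 286 and 83.1 and at 525, 282 and 13.6 CPM, and Cd63 at 929, 778 and 405 and at 765, 462 and 84.6 CPM. The order of these 3 groups was the same in both mice. The cells with neither did not continue it: there Trem2 was at 371 and 388 CPM, Fabp5 at 62.2 and 95.5 CPM and Cd63 at 127 and 109 CPM, all low, while Folr2, at 122 and 200 CPM, was below the cells with both.

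Cd207 did not follow either order. It was highest in the cells with both, at 2242 and 1778 CPM, lower in those with Gpnmb only (590 and 855 CPM) or Clec4f or Vsig4 only (505 and 950.5 CPM), and lowest in cells with neither (23.1 and 135 CPM). Ccr2 and S100a4 of the monocyte list were highest in the cells with neither. Ccr2 was at 463 and 247 CPM there and at 92.9 and 28.1 CPM in the cells with both. S100a4 was at 634 and 263 CPM in the cells with neither and at 13.5 and 110 CPM in those with both. The control cells with neither also held much of the dendritic cell counts. They had 70 of 76 counts of Fscn1, 41 of 65 of Ccr7, 29 of 35 of Cd209a and 12 of 21 of Flt3. Of Xcr1 and Clec9a they had 3 of 15 and 3 of 23. The part of dendritic cells in this group was not tested. The monocyte list summed to 2332 and 2048 CPM in the cells with neither, 1409 and 1109 CPM in those with Clec4f or Vsig4 only, 705 and 720 CPM in those with Gpnmb only and 438 and 486 CPM in the cells with both. In the control mouse most of the sum with Clec4f or Vsig4 only came from Plac8, of which low values are not listed. Plac8 was counted in 22 and 32 cells in all, and 5 cells held 53.2% and 51.0% of its counts. The order of these sums thus rests in part on Plac8. Single genes went another way: in the control mouse Thbs1 was at 28.3 CPM in the cells with Gpnmb only and at 9.22 CPM in those with neither, and in the same cells Clec4e was at 24.7 and 6.91 CPM.

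The number of rule genes gave a like order. From 2 to 5 of the 5 genes, the core Kupffer cell list summed to 581, 726, 2315 and 2561 CPM in the control mouse and to 673, 1763, 2299 and 5031 CPM in the Egr2-deficient mouse. S100a4 was at 624, 530, 35.5 and 19.2 CPM and at 330, 241, 89.0 and 67.2 CPM over the same steps. Ccr2 ended lower at 5 genes (72.3 and 52.0 CPM) than at 2 (293 and 257 CPM) without a steady order between. Cells with 5 of the rule genes had more core Kupffer cell genes and less S100a4 than those with 2, and were also deeper. The rule genes are themselves Kupffer cell genes and depth bears on who has a count. This order is therefore partly built in and is a description only.

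**Figure D3:**
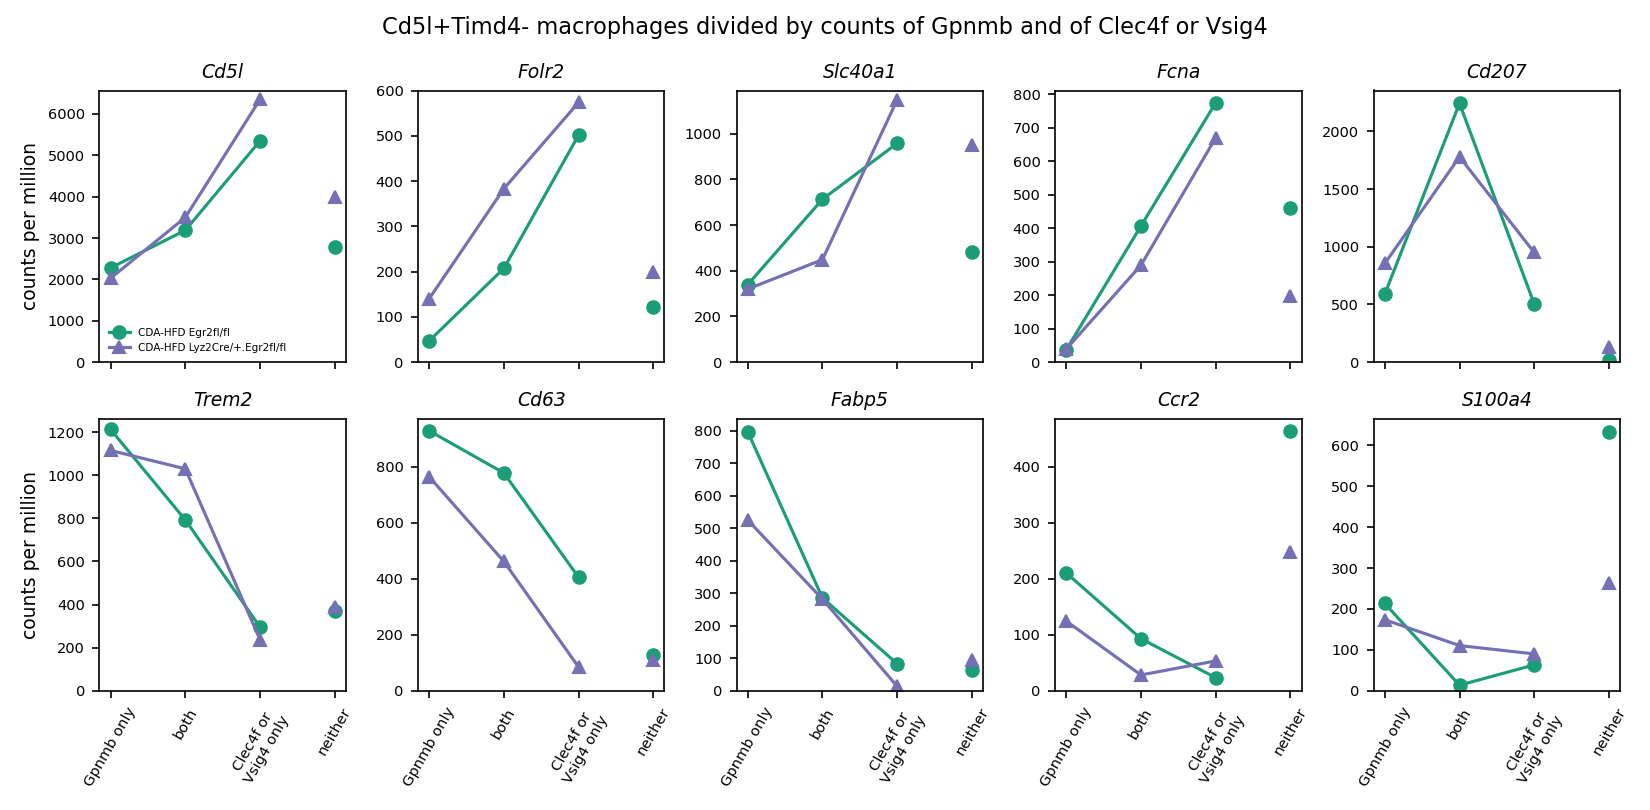
CPM of 10 genes in Cd5l+Timd4- macrophages divided by a count of Gpnmb and of Clec4f or Vsig4, for the control mouse (circles) and the Egr2-deficient mouse (triangles); each point is the sum over the cells of a group and lines join groups of 1 mouse. Folr2, Slc40a1 and Cd5l are highest with Clec4f or Vsig4 only, Trem2, Cd63 and Fabp5 are highest with Gpnmb only, Cd207 is highest with both (2242 and 1778 CPM), and Ccr2 and S100a4 are highest with neither.

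Between the genotypes, the Cd5l+Timd4- macrophages of the Egr2-deficient mouse had more of 3 core Kupffer cell genes, less of the matrix-degrading enzyme Mmp12, of Spp1 and of Itgax, less of the MHC class II regulator Ciita and less of the inducible heat shock genes. Most lipid-associated genes were within 2-fold, and 15 of 22 had a ratio below 1. Of 7218 genes with at least 100 counts, 84 (1.16%) were at least 2-fold higher and 63 (0.873%) lower in the Egr2-deficient mouse, and the median log2 ratio over all genes was 0.03. Averaging each cell's CPM gave 120 higher and 101 lower genes, and of the 2480 genes with at least 500 counts 7 were higher and 11 lower, so the balance of the 2 directions turned with the count minimum. These counts describe 2 animals.

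Core Kupffer cell genes were at least 2-fold higher in 3 and lower in 1 of 13 measured cases, with a median log2 ratio of 0.64, and 11 of the 13 were above a ratio of 1. Folr2 was at 125 CPM (114 to 137) and 256 CPM (242 to 270), a ratio of 2.05 (1.84 to 2.28). C6 was at 8.37 and 32.1 CPM, a ratio of 3.84 (2.60 to 5.83), and Marco at 11.1 and 42.0 CPM, a ratio of 3.79 (2.71 to 5.43). 5 cells held 95.1% and 90.8% of the Marco counts and 77.4% and 66.3% of those of C6. Clec4f had a ratio of 1.56 (1.47 to 1.65) and Vsig4 of 1.65 (1.53 to 1.78), neither past 2-fold. Fcna lay below 1, at 0.873, and Tspan15 was the lower one, at 24.8 and 11.8 CPM. In the ND resident Kupffer cells of the 2 genotypes Clec4f stood at 7310 and 7842 CPM and Folr2 at 1923 and 2160 CPM, while Marco was higher in the mouse without Cre, at 413 and 196 CPM. In the Cd5l-negative macrophages the ratio of Folr2 was 2.99 (2.61 to 3.43).

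Lipid-associated genes were higher in 1 (Clec4e), lower in 3 and within 2-fold in 18 of 22 cases, with a median log2 ratio of -0.10. The ratio of Clec4e was 2.33, but 1.46 with at least 1 of the 5 genes, 1.89 with the rule read in thinned cells and 1.33 with each cell's CPM averaged. Gpnmb had a ratio of 0.964 (0.917 to 1.01), Trem2 of 0.9514 (0.911 to 0.994), Lgals3 of 0.996 and Lpl of 1.05. Several others had intervals below 1: Fabp5 had a ratio of 0.665 (0.624 to 0.708), Cd63 of 0.721 (0.684 to 0.759), Anxa2 of 0.746 (0.686 to 0.811) and Cd9 of 0.816 (0.755 to 0.882). 5 cells held 37.4% and 24.1% of the Fabp5 counts. The lower ones were Spp1 at 669 and 301 CPM, Mmp12 at 644 and 282 CPM, and Itgax (CD11c), a reported target of Egr2, at 96.1 and 30.6 CPM. 5 cells held 80.6% and 55.4% of the Spp1 counts, and 55.0% and 46.4% of those of Mmp12, so these sums rest on few cells, whereas they held 27.8% and 36.1% of the Itgax counts. Mmp12, for which low values are not listed, was counted in 40 of 118 and 33 of 175 cells, and in those cells its median was 698 and 1017 CPM, higher in the Egr2-deficient mouse. Itgax was likewise lower in the Cd5l-negative macrophages, with a ratio of 0.456 (0.424 to 0.490), and so was Mmp12, with 0.338 (0.320 to 0.356). Siglecf, the other reported target, had under 100 counts, at 11.1 and 2.13 CPM, in cells that were sorted free of SiglecF.

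Within the Egr list, Egr1 was at 160 and 141 CPM and Nab1, a corepressor that binds Egr proteins, at 13.5 and 27.7 CPM, a ratio of 2.05 (1.48 to 2.89). In the Cd5l-negative macrophages the ratio of Nab1 was 1.18. All 12 measured receptors for niche signals, all 11 transcription factors and cofactors, all 11 iron and heme genes, all 15 lipid efflux genes and all 7 genes of the IL-1 and IL-18 axis were within 2-fold.

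All 7 MHC class II genes had a ratio of Egr2-deficient over control below 1, with a median log2 ratio of -0.70. Only Ciita, their transactivator, passed the fold, at 37.3 and 14.3 CPM, a ratio of 0.384 (0.286 to 0.513). H2-Aa was at 3523 CPM (3463 to 3584) and 2350 CPM (2308 to 2392) and the invariant chain Cd74 at 7060 and 4783 CPM. The ND resident Kupffer cells showed the same direction with H2-Aa at 5511 and 2514 CPM and Ciita at 67.1 and 22.3 CPM. The Cd5l-negative macrophages differed less, with H2-Aa at 5912 and 5084 CPM. The dendritic cell list summed to 64.5 and 19.0 CPM in the Cd5l+Timd4- macrophages of the 2 mice and thus moved with these genes. Over the 107 and 155 cells without a count of Cd209a, Flt3, Ccr7 or Kdr, a choice made after seeing the data, all 7 genes again had ratios below 1, with a median log2 ratio of -0.67, and Ciita was at 37.7 and 13.9 CPM, a ratio of 0.368 (0.267 to 0.504).

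Heat shock genes were below a ratio of 1 in all 10 cases, 4 of them past 2-fold (Hspa1a, Hspa1b, Hsp90aa1 and Dnajb1). Hspa1a, an inducible chaperone, was at 757 and 189 CPM, a ratio of 0.249 (0.232 to 0.268). The same gene was lower in the Cd5l-negative macrophages (692 and 190 CPM) and in the monocytes (1068 and 255 CPM) of the same 2 mice, but not in the ND resident Kupffer cells (78.6 and 100 CPM). The difference thus ran through all 3 of these populations on CDA-HFD. Interferon-responding genes were above 1 in 7 of 9 cases, with a median log2 ratio of 0.72, but only Oasl1 passed the fold, at 19.2 and 38.5 CPM. Irf7, the master factor of the interferon response, was at 200 and 329 CPM. Fkbp5 and Ddit4, both induced by glucocorticoids, were 2.03 times higher and the other 5 measured genes of that list within 2-fold. Fkbp5 was also higher in the Cd5l-negative macrophages (14.97 and 41.4 CPM) and monocytes (17.2 and 53.0 CPM) of the Egr2-deficient mouse.

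**Figure D4:**
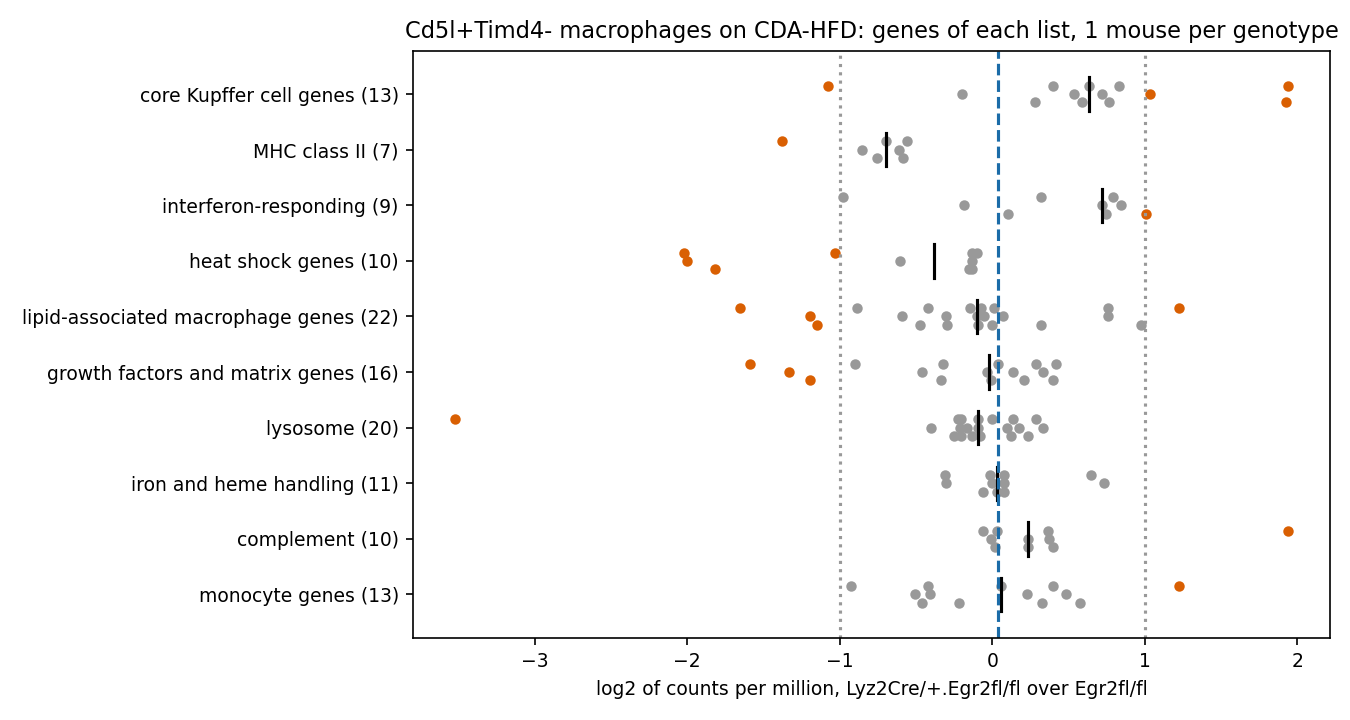
Log2 ratio of CPM, Egr2-deficient over control mouse, of each measured gene of 10 lists in the Cd5l+Timd4- macrophages; points past 2-fold are orange, black bars are list medians, the dashed line is the median of all genes and dotted lines mark 2-fold. Core Kupffer cell genes (median 0.64) and interferon-responding genes (0.72) lie mostly to the right and MHC class II (-0.70) and heat shock genes (-0.38) to the left, with iron, lysosome and monocyte genes around the line.

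Matrix and lysosome genes differed by single members. Of 16 growth factor and matrix genes Mmp12, the collagenase Mmp13 (54.0 and 18.0 CPM) and Mmp19 (32.1 and 12.8 CPM) were lower and none higher. For Mmp13, 5 cells held 67.5% and 74.2% of the counts, and averaging each cell's CPM gave a ratio of 0.544, within 2-fold. Of 20 lysosome genes only Atp6v0d2, a subunit of the proton pump, passed the fold, at 97.8 and 8.51 CPM, a ratio of 0.0871 (0.0622 to 0.119), and 5 cells held 57.7% and 59.1% of its counts. Of 12 chemokines only Cxcl9 did, at 43.5 and 3.68 CPM, counted in 9 and 11 cells. Of 6 measured neutrophil genes S100a9, Retnlg and G0s2 were lower. S100a9 came from 5 cells and 1 cell, as given above.

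Genes with at least 200 counts that were found in 5% or more of the cells of 1 mouse were ranked by ratio, and the highest ratios after Marco belonged to the unconventional myosin Myo10 (24.6 and 75.8 CPM), the sulfotransferase Sult1a1 (17.0 and 50.3 CPM), and Tnip3 (15.4 and 43.1 CPM) and Irak3 (18.1 and 48.4 CPM), which both dampen inflammatory signalling. Tmem26, Clec4e, F630028O10Rik, Cd300e and Cpd followed with ratios from 2.48 to 2.20. Among the 10 genes, Sult1a1 (1.88), F630028O10Rik (1.95), Cd300e (1.58) and Cpd (1.47) came under 2-fold at their lowest over the alternatives, as did Clec4e. At the lower end stood Hspb1 (49.96 and 3.68 CPM), of whose control counts 98.9% lay in 5 cells, Atp6v0d2, Hspa1b, Hspa1a, the kinase Matk (62.1 and 16.4 CPM), Dnajb1, Itgax, the GTPase Rhoc (119 and 39.3 CPM), Mmp13 and the transcription factor Bhlhe40 (75.3 and 28.4 CPM). Several of these went the same way in the Cd5l-negative macrophages: Myo10 had a ratio of 2.47 there, Rhoc of 0.354, Bhlhe40 of 0.313 and Matk of 0.504. In the ND resident Kupffer cells these 4 genes had ratios of 1.13, 1.19, 1.42 and 1.19. Whether the ratios differ between the populations was not tested.

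**Figure D5:**
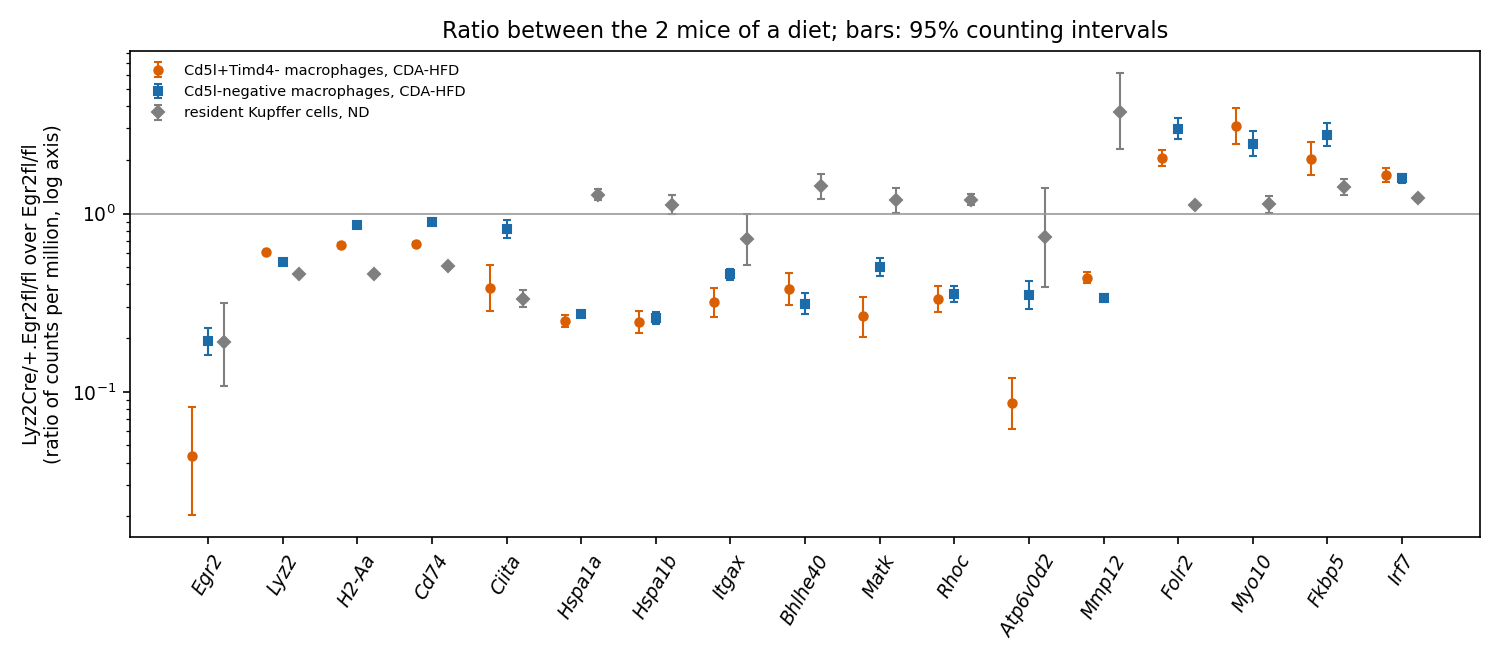
Ratio of CPM (log axis), Lyz2Cre/+.Egr2fl/fl over Egr2fl/fl, of genes named in the text in the Cd5l+Timd4- macrophages (circles) and Cd5l-negative macrophages (squares) on CDA-HFD and in ND resident Kupffer cells (diamonds), with 95% counting intervals as bars. Egr2 and Lyz2 lie below 1 in all 3 populations; Hspa1a, Itgax, Rhoc and Bhlhe40 lie well below 1 in both CDA-HFD populations, and Folr2, Myo10 and Fkbp5 lie well above 1 there.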

How the data were processed

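The authors sorted the cells, pooled the 4 mice, captured them on the BD Rhapsody system, amplified cDNA by TAS-Seq, mapped reads to GRCm38 and assigned barcodes to mice by hashtag. The deposited matrix, made by the authors, holds whole-number counts per gene and barcode without normalization. Whether reads or molecules were counted is not given in the sources used here. Of 16786 barcodes, 1392 that the authors named doublets were left out. Cells came at 3000 per ND mouse and 9000 per CDA-HFD mouse loaded, and 7 hashtag columns belong to no mouse and were not used.

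Counts were summed over the cells of a group and mouse and divided by their total to give CPM (Python 3.11.15, NumPy 2.4.6, SciPy 1.17.1, pandas 2.3.3). Levels have exact Poisson, shares exact Clopper-Pearson and ratios exact binomial 95% intervals. Genes needed 100 counts over the groups compared, and a group at 0 was set to 3 counts. Shares were also read in cells thinned to 5000 counts, without 2 and 5 shallower cells. Scripts were tested on simulated data. In each comparison the 10 highest and 10 lowest genes past 2-fold in every pair, ranked by the pair nearest to 1, were named (genotype: 200 counts), beside members of 28 gene lists. Mitochondrial genes and the genes of the rules were left out. The members and lists were chosen with earlier results of these data known. Scrublet (scanpy 1.11.5) at its own threshold marked 60 cells (0.39%), which was taken as too few, though the true share of doublets was not known. Leaving out the highest 5% of its scores, which held 6 and 2 of the Cd5l+Timd4- macrophages, was therefore an alternative, as was TMM scaling (edgeR 4.0.16).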

Additional observations from a re-analysis of the deposited data

Results flagged for a closer look

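For 5 genes the 2 genotypes stood in opposite order, each by 2-fold or more, in the Cd5l+Timd4- macrophages on CDA-HFD and in the resident Kupffer cells on ND. Only genes of the lists, named genes and genes from the paper were looked through, not all 7218 measured genes. The 5 are therefore no count over all genes, and Marco and Irak3 had been named for their high ratio between the genotypes. With 1 mouse per group none of these differences between the diets was tested. Marco, the scavenger receptor, had a ratio of Egr2-deficient over control of 3.79 (counting interval 2.71 to 5.43) on CDA-HFD and of 0.475 (0.456 to 0.494) on ND, and its CDA-HFD counts lay in 7 and 14 cells. Irak3, an inhibitor of Toll-like receptor signalling, had ratios of 2.67 (2.03 to 3.55) and 0.487 (0.416 to 0.568). Mmp12, the macrophage elastase, had ratios of 0.438 (0.410 to 0.467) and 3.70 (2.31 to 6.15), the latter at 1.21 and 4.47 CPM from 3 of 748 and 6 of 803 cells, with low values not listed. Pclaf, a replication-linked gene, had ratios of 0.487 (0.356 to 0.663) and 2.01 (1.61 to 2.52). S100a9 had ratios of 0.0533 (0.0396 to 0.0703) and 3.23 (2.99 to 3.50), from 5 cells and 1 cell on CDA-HFD and from 8 and 10 cells on ND.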

How the results depend on the processing

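No ratio of a named gene and no difference of shares turned its direction under the alternatives run, and 94 of 108 values of the comparisons moved by less than 1.5 times or within their interval. With at least 3 of the 5 genes the Cd5l+Timd4- macrophages were 1.61% and 2.39% of the cells. Averaging each cell's CPM gave 101 lower genes between the genotypes. A minimum of 500 counts left 7 higher and 11 lower genes between the genotypes, against 84 and 63, 177 and 318 against resident Kupffer cells, and 92 and 50 against Cd5l-negative macrophages. With no minimum beyond 1 count the genotypes differed past 2-fold in 1335 higher and 1571 lower genes, so that under either minimum the lower genes outnumbered the higher ones, and 765 genes were higher against resident Kupffer cells and 622 higher and 230 lower against Cd5l-negative macrophages. Of 720 values of named genes, 11 in 7 genes (Clec4e, F630028O10Rik, Sult1a1, Cpd, Cd300e, Mmp13 and Cxcl3) came under 2-fold. Chosen after seeing the data, leaving out cells with S100a9 (113 and 174 cells left) gave 87 higher and 56 lower genes between the genotypes, and leaving out cells with Cd209a, Flt3, Ccr7 or Kdr (107 and 155 cells left) gave 68 and 58, of which 49 and 45 were shared with the counts over all Cd5l+Timd4- macrophages. No paired analysis was possible because each group held 1 mouse, and for the same reason no replicate could be left out. The causes of these changes were not tested, beyond the fewer or more genes that a count minimum admits. Few counts limit Siglecf and other genes. For Siglecf the cells were also sorted free of SiglecF, and the part of that gate in its counts was not tested.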

Other observations

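Genes of digestion stress, cell division and antigen presentation also varied. Fosb, an immediate early gene, was at 262 and 237 CPM in the Cd5l+Timd4- macrophages, at 262 and 220 CPM in the Cd5l-negative macrophages and at 22.7 and 18.8 CPM in the ND resident Kupffer cells, which were sorted from livers on the other diet. Stmn1, a tubulin-binding protein of dividing cells, was at 79.7 and 107 CPM, at 63.2 and 79.6 CPM and at 20.0 and 26.5 CPM in the same order. H2-Ab1, the partner chain of H2-Aa, was at 3782 and 2476 CPM, at 6015 and 4893 CPM and at 5700 and 2732 CPM.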
